A study of Homo sapiens with 6 samples.

Results

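21NT cells that overexpressed TBX3iso2 were compared directly with 21NT cells that overexpressed TBX3iso1. 21NT is an established breast cancer line of the 21T series that resembles ductal carcinoma *in situ* (DCIS). The 4 isoform libraries (2 TBX3iso2 and 2 TBX3iso1) were taken by their labels from the 6 RNA-Seq libraries of the series. The other 2, from cells with the empty pcDNA3.1 vector (EV), were used as a reference level and for the shared estimate of spread. All 3 lines were stably transfected with pcDNA3.1 and kept under G418 in medium with insulin, EGF, hydrocortisone and serum, and RNA was isolated from subconfluent cells. Resistant cells were kept as 1 pool per line, and a line's 2 libraries are therefore replicates of 1 transfected population. The sources do not say whether they were separate cultures, and p-values then measure only the spread between these libraries, which may be technical.

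TBX3 is a T-box transcription factor that acts mainly as a repressor and is needed for mammary gland development. Its isoforms arise by alternative splicing: TBX3iso2 retains exon 2a, which lengthens the DNA-binding T-box, and TBX3iso1 lacks it. T-box factors bind DNA elements built from the half-site AGGTGTGA. The sequences below, from the GRCh37 (hg19) genome and its annotation, show what distinguished the constructs. Exon 2a lies on chromosome 12 at chr12:115117718-115117777, on the minus strand, within the coding sequence of *TBX3*. Capitals mark the 60 bases of exon 2a, and the lower-case letters are the neighbouring exons as joined in the spliced transcript.
TBX3iso2, exon 2a and its flanks: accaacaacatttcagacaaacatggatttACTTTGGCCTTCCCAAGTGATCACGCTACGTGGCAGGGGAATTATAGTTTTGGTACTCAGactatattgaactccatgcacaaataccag
TBX3iso1, the same junction: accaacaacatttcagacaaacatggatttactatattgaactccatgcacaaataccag

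Values were RPKM, read counts scaled to transcript length and library size, with 1 value per gene and library, so the table did not separate reads that held exon 2a from those that did not. Total *TBX3* was 13.1 and 11.4 RPKM in the TBX3iso1 libraries and 17.5 and 15.5 RPKM in the TBX3iso2 libraries, against 8.52 and 8.24 RPKM in EV. Both overexpressing lines lay above EV, and the isoform lines did not overlap. The difference between the isoform lines, TBX3iso2 minus TBX3iso1, was 0.43 (standard error 0.0989, limma adjusted p = 0.0275) on the log2(RPKM + 0.1) scale. That is below the 1.5-fold threshold, and *TBX3* was not among the genes called. The libraries held between 43176600 and 54512400 alignments. All 12 markers of luminal breast epithelium were measured above the filter and 0 were called by limma (4 at an unadjusted p under 0.05 and 0 by a linear model without moderation). Of all tested genes 30.8% had a limma unadjusted p under 0.05, the share to set beside such counts throughout. Of the 12 basal breast markers, 11 were tested and 2 were called higher with TBX3iso2 (18.2%, against 3.47% of all genes), *OXTR* (1.00) and *ACTA2* (0.61). The summed level of the 12 basal markers was 505 to 534 RPKM with TBX3iso1 and 509 to 565 RPKM with TBX3iso2. *KRT14*, a defining one, stayed under 0.1 RPKM in every library. *ACTA2* lost its call without EV replicate 1 (0.61), EV replicate 2 (0.61), TBX3iso1 replicate 2 (0.43) or TBX3iso2 replicate 2 (0.50).

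A gene was called when limma gave a Benjamini-Hochberg adjusted p under 0.05 and a fold difference over 1.5, among the 12805 of 20824 genes whose average across all libraries reached 0.5 RPKM. Of these, 805 were called (6.29%), 444 higher with TBX3iso2 (3.47%) and 361 lower (2.82%). The difference exceeded 2-fold for 115 of the higher and 126 of the lower genes, and 4-fold for 21 and 27. The 2 libraries of one line lay wholly above those of the other for all 805 called genes and for 53.5% of all genes tested. The split between directions depended on scaling: median-ratio scaling gave 344 higher and 448 lower, and quantile normalization 351 and 435, as the median over all genes moved from 0.054 to 0.00086 and 0.0091. None of the 805 changed sign under either. Called genes were more frequent among weakly expressed genes, at 12.1% in the lowest of 4 equal bins by mean RPKM and 2.25% in the highest.

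**Figure D1:**
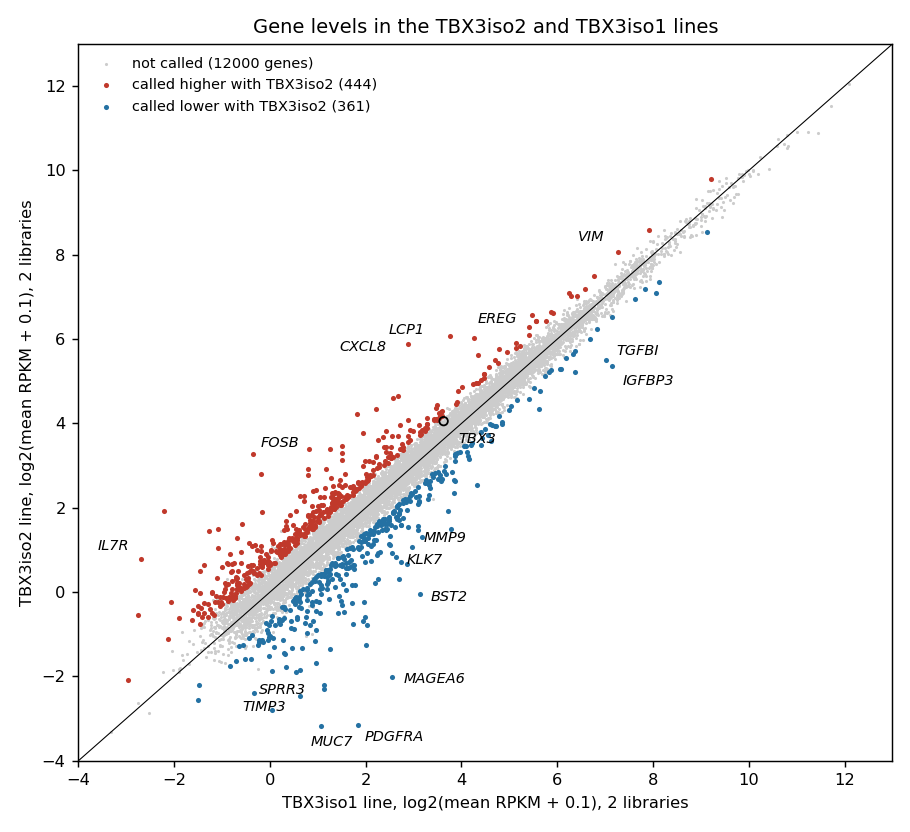
Mean level of each tested gene in the TBX3iso1 line (x axis) and the TBX3iso2 line (y axis), both as log2(mean RPKM + 0.1) over 2 libraries. Red points are the 444 genes called higher and blue points the 361 called lower with TBX3iso2, grey points were not called, the line marks equal levels, and the circle is *TBX3*, which lay at the upper edge of the grey points.

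The level in EV placed the called genes in different ways. Of the 444 genes higher with TBX3iso2, EV lay between the isoform lines for 125, above both for 119 and below both for 70, with the others overlapping a line. Of the 361 lower genes, EV lay between for 93, above both for 104 and below both for 72. Over all tested genes, EV lay between the lines for 5.28%, above both for 15.7% and below both for 14.2%. EV was placed only where the isoform lines did not overlap, which held for every called gene but for 53.5% of all tested. A call also requires a gap of over 1.5-fold in which EV can lie. The larger shares among called genes are therefore partly fixed by the call. The EV mean was nearer to TBX3iso2 for 258 of the 444 higher genes and 175 of the 361 lower genes. Neither isoform line was therefore uniformly the one that had moved from the empty vector.

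Several genes were nearly absent from one isoform line and present in the other. *PDGFRA*, the alpha receptor for platelet-derived growth factor (chr4:55095447-55164412), was 3.63 and 3.28 RPKM with TBX3iso1 and 0.0111 and 0.0132 RPKM with TBX3iso2. EV held 8.08 and 7.98 RPKM, the highest of the 3 lines. This was the largest fall of all on the log2(RPKM + 0.1) scale, at -4.98 (standard error 0.127, limma adjusted p = 5.69e-06). *MUC7*, a small secreted mucin, was 2.24 and 1.74 RPKM with TBX3iso1 but was listed at 0 in one TBX3iso2 library and at 0.0209 RPKM in the other. EV again held more, 3.05 and 2.64 RPKM, and the fitted difference of -4.24 (standard error 0.18996, limma adjusted p = 5.14e-05) depends on the added 0.1 RPKM. *TIMP3*, an inhibitor of matrix metalloproteases, was 1.48 and 1.402 RPKM with TBX3iso1 and 0.0709 and 0.0899 RPKM with TBX3iso2, a difference of -3.09 (standard error 0.206, limma adjusted p = 0.000205). Here EV, at 0.0494 and 0.0366 RPKM, lay with TBX3iso2, below the pseudocount. In the other direction *IL7R*, the receptor chain for interleukin 7, was 0.0479 and 0.0603 RPKM with TBX3iso1 but 1.75 and 1.52 RPKM with TBX3iso2, and differed by 3.49 (standard error 0.214, limma adjusted p = 0.00015). These 4 were the called genes with a mean under 0.1 RPKM in one isoform line and at least 1 RPKM in the other. In each, the low line lay under the added 0.1 RPKM, so the size of all 4 differences depends on it.

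Other large differences spanned unrelated functions. *BST2*, the membrane protein tetherin, was 7.14 and 10.3 RPKM with TBX3iso1 and 0.835 and 0.912 RPKM with TBX3iso2, against 19.97 and 20.7 RPKM in EV. It differed by -3.15 (standard error 0.1595, limma adjusted p = 6.53e-05), and EV, TBX3iso1 and TBX3iso2 formed a descending order. *FOXJ1*, the master regulator of motile cilia, was 0.482 and 0.659 RPKM with TBX3iso1, 2.99 and 2.96 RPKM with TBX3iso2, against 11.9 and 11.7 RPKM in EV, and differed by 2.21, limma adjusted p = 0.000169. *CFAP126*, a ciliary protein gene, had the same order of lines at 0.0626 and 0.0322 RPKM, 0.652 and 0.519 RPKM and 2.66 and 2.01 RPKM. *MAGEA6*, a cancer-testis antigen, was 5.18 and 6.41 RPKM with TBX3iso1 and 0.133 and 0.1602 RPKM with TBX3iso2 (difference -4.57, limma adjusted p = 6.53e-05), but near-identical family members share its reads. *PLAC8* (difference 2.97) and *CPZ* (2.71), which encodes a secreted carboxypeptidase, also rose, and *SPOCK1* (-3.26), a matrix proteoglycan gene, *MAL* (-2.84) and *C1QL1* (-2.63) fell.

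Chemokines, interleukins and their receptors were among the groups with the most calls. CXC chemokines with the ELR motif attract neutrophils through the receptor CXCR2, and their promoters are classic targets of NF-κB. Of 44 tested members, 11 were called higher and 8 lower with TBX3iso2, 43.2% of the list against 6.29% of all genes. Its median difference was 0.016 beside 0.054 over all genes, with 22 members above 0 and 22 below. The median changed sign under median-ratio scaling, quantile normalization and no filter on low values. It also changed sign without TBX3iso1 replicate 1 or TBX3iso2 replicate 2. The linear model without moderation called 6 of the 44.

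*CXCL8*, which encodes interleukin 8, was 6.695 and 7.79 RPKM with TBX3iso1 and 67.4 and 51.2 RPKM with TBX3iso2, with EV between them at 15.2 and 17.8 RPKM. It differed by 3.01 (standard error 0.146, limma adjusted p = 5.73e-05). *CXCL2* was 3.52 and 3.33 RPKM with TBX3iso1, 21.2 and 15.9 RPKM with TBX3iso2, against 6.51 and 7.601 RPKM in EV, a difference of 2.39 (standard error 0.143, limma adjusted p = 0.000137). *CXCL3* was 1.36 and 1.94 RPKM with TBX3iso1, 12.1 and 8.64 RPKM with TBX3iso2, against 2.29 and 3.2997 RPKM in EV, a difference of 2.58 (standard error 0.236, limma adjusted p = 0.000845). For all 3, TBX3iso2 was the highest line, TBX3iso1 the lowest, and replicate 1 of TBX3iso2 lay above replicate 2. *CXCL1* was 3.204 and 4.305 RPKM with TBX3iso1 and 14.6 and 12.3 RPKM with TBX3iso2 (difference 1.83, limma adjusted p = 0.00104), and EV, at 2.81 and 3.66 RPKM, lay beside TBX3iso1. *CXCL5* was 74.5 and 77.8 RPKM (TBX3iso1) against 144 and 129 RPKM (TBX3iso2) (difference 0.84, limma adjusted p = 0.00141), with EV lowest at 37.7 and 41.4 RPKM. *CXCL1*, *CXCL2* and *CXCL3* are close paralogs, and how shared reads were divided between them is not given in the sources used here.

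Interleukins went both ways. *IL11*, a cytokine of the interleukin 6 family, was 1.58 and 1.696 RPKM with TBX3iso1 and 8.51 and 6.44 RPKM with TBX3iso2, against 2.32 and 1.89 RPKM in EV, and differed by 2.11 (standard error 0.1597, limma adjusted p = 0.000356). *CCL20* (9.54 and 12.5 RPKM with TBX3iso1 against 22.97 and 17.9 RPKM, difference 0.89) and *NFKBIA*, the inhibitor of NF-κB that NF-κB itself induces (57.8 and 62.5 RPKM with TBX3iso1 against 105 and 93.01 RPKM, difference 0.71), were also called higher. *IL6* (0.84) and *TNFAIP3* (1.01) were called, but *IL6* lost its call without EV replicate 2 (0.84), TBX3iso1 replicate 1 (0.86), TBX3iso1 replicate 2 (0.82) or TBX3iso2 replicate 1 (0.58), and *TNFAIP3* without EV replicate 1 (1.01), EV replicate 2 (1.01), TBX3iso1 replicate 1 (1.04), TBX3iso1 replicate 2 (0.97) or TBX3iso2 replicate 1 (0.57). Among the lower genes, *IL32* was 6.43 and 6.77 RPKM with TBX3iso1 and 1.44 and 1.66 RPKM with TBX3iso2, with EV at 0.976 and 1.18 RPKM, close to TBX3iso2. Its difference was -2.02 (standard error 0.134, limma adjusted p = 0.000199). *IL1A* (2.44 and 2.75 RPKM with TBX3iso1 against 1.24 and 1.22 RPKM, difference -1.02), which encodes an interleukin 1, and its natural antagonist *IL1RN* (1.67 and 2.05 RPKM with TBX3iso1 against 0.806 and 0.728 RPKM, difference -1.17) both fell. *ACKR3*, a scavenging chemokine receptor, fell from 15.04 and 14.05 RPKM with TBX3iso1 to 6.08 and 6.23 RPKM with TBX3iso2, with EV at 4.704 and 4.26 RPKM.

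The promoters of the 4 most changed chemokines are shown because they moved together and share a motif. The letters GGANTTTCC, a core NF-κB motif, were searched on both strands of the RefSeq promoters (GRCh38.p14, 250 bases before to 50 after the start), after the values had been seen. The motif was present in 1.64% of all promoters of the table and in 1.56% of the 9472 tested genes with a promoter. It was in 9 of the 297 called higher (3.03%) and in 4 of the 244 called lower (1.64%). The 4 chemokines shown are among those 9 and prompted the search, so the share among the higher genes is partly fixed by that choice. Each sequence runs 5′ to 3′ from 150 to 31 bases upstream of the start, and capitals mark GGANTTTCC and, in *CXCL8*, the AP-1 letters TGANTCA.
CXCL1, chr4:73869243-73869362, plus strand: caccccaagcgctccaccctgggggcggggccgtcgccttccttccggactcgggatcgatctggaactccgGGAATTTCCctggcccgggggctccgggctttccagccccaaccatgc
CXCL2, chr4:74099226-74099345, minus strand: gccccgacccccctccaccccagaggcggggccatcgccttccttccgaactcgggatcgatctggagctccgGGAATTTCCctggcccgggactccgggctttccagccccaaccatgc
CXCL3, chr4:74038720-74038839, minus strand: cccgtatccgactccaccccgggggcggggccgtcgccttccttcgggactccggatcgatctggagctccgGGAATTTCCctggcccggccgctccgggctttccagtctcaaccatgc
CXCL8, chr4:73740419-73740538, plus strand: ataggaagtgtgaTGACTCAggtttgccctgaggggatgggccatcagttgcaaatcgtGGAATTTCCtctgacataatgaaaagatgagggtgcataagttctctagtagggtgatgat
The GGANTTTCC letters began 78, 77, 78 and 91 bases upstream of the start in *CXCL1*, *CXCL2*, *CXCL3* and *CXCL8*, and the AP-1 letters of *CXCL8* began at 137. A match is a description of letters and says nothing of binding in these cells. The T-box half-site AGGTGTGA was in 0.707% of the tested promoters, in 3 of the 297 called higher (1.01%) and in 4 of the 244 called lower (1.64%).

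Ligands of the EGF receptor family rose beside the chemokines. These ligands bind EGFR or ERBB4 and act on the cells that release them. *EREG* (epiregulin) was 19.4 and 18.8 RPKM with TBX3iso1 and 75.7 and 55.3 RPKM with TBX3iso2, with EV between them at 36.7 and 36.96 RPKM, and differed by 1.75 (standard error 0.133, limma adjusted p = 0.000362). *BTC* (betacellulin) was 2.44 and 2.32 RPKM with TBX3iso1 and 4.93 and 4.91 RPKM with TBX3iso2, against 3.53 and 3.696 RPKM in EV, and differed by 1.02, limma adjusted p = 0.000922. *EPGN* (epigen, difference 0.76), *AREG* (amphiregulin, 0.61) and *HBEGF* (0.61) were called, near the fold threshold. *EPGN* lost its call without TBX3iso2 replicate 1 (0.58), *AREG* without TBX3iso1 replicate 1 (0.46) or TBX3iso2 replicate 1 (0.56) and *HBEGF* without TBX3iso1 replicate 1 (0.53) or TBX3iso2 replicate 2 (0.58). *NRG4*, a ligand of ERBB4, went the other way, from 0.7301 and 0.751 RPKM to 0.28998 and 0.346 RPKM. *EGFR* itself, given as their receptor after its values were seen, was 24.5 and 16.1 RPKM with TBX3iso1 and 20.6 and 10.7 RPKM with TBX3iso2, with overlapping lines (difference -0.41, limma adjusted p = 0.396).

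Over the whole list of growth factor ligands and IGF binding proteins, 8 of 41 tested members were higher and 8 lower. That was 39.0% called, against 6.29% of all genes, and the linear model without moderation called 5 of the 41. *CSF2* (GM-CSF) rose from 2.53 and 2.76 RPKM with TBX3iso1 to 6.88 and 5.51 RPKM with TBX3iso2, a difference of 1.19 (standard error 0.155, limma adjusted p = 0.00327), with EV lowest at 0.893 and 1.13 RPKM. *IGFBP3*, which sequesters insulin-like growth factors, was 139 and 145 RPKM with TBX3iso1 and 41.9 and 39.5 RPKM with TBX3iso2, below 208 and 219 RPKM in EV. Its difference of -1.80 (standard error 0.0779, limma adjusted p = 4.57e-05) was among the largest on the linear scale. *EFNB1*, an ephrin ligand, was 6.75 and 6.42 RPKM with TBX3iso1 and 2.85 and 3.01 RPKM with TBX3iso2 (difference -1.14, limma adjusted p = 0.000376). Of 24 tested growth factor receptors 0 were called higher (3 at an unadjusted p under 0.05) and 3 lower, *PDGFRA*, *EPHB3* (-1.05) and *INSR* (-0.82), and *INSR* lost its call without TBX3iso1 replicate 2 (-0.77). The called share of the receptors was 12.5%.

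AP-1 and immediate-early genes were called in 1 direction. AP-1 is a dimer of FOS and JUN family proteins, and immediate-early genes are transcribed within minutes of a growth factor or stress signal. Of 33 tested members 8 were higher with TBX3iso2 and 0 lower (2 lower at an unadjusted p under 0.05), with a median of 0.15 against 0.054 for all genes. The called share was 24.2%, against 3.47% of all genes called higher and 2.82% called lower. At so low a share of lower calls, 0 lower among 33 genes says little by itself. The linear model without moderation called 1 of the 33.

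*FOSB* was 0.733 and 0.641 RPKM with TBX3iso1, 13.4 and 5.76 RPKM with TBX3iso2, against 0.928 and 0.729 RPKM in EV. Its difference was 3.50 (standard error 0.341, limma adjusted p = 0.00109), and replicate 1 of TBX3iso2 lay well above replicate 2. *NR4A1*, an orphan nuclear receptor, was 0.317 and 0.428 RPKM with TBX3iso1, 3.58 and 1.87 RPKM with TBX3iso2, against 0.562 and 0.545 RPKM in EV, a difference of 2.52 (standard error 0.284, limma adjusted p = 0.00194). *ATF3*, a stress-induced repressor, was 2.64 and 2.84 RPKM, 14.5 and 7.46 RPKM and 1.97 and 2.17 RPKM in the same order, a difference of 1.89 (standard error 0.263, limma adjusted p = 0.00443). In these 3 TBX3iso2 was the high line and TBX3iso1 lay close to EV. *FOS* was 5.56 and 4.56 RPKM with TBX3iso1 and 15.5 and 9.87 RPKM with TBX3iso2, but 22.4 and 16.3 RPKM in EV, so that TBX3iso1 was the low line (difference 1.28, limma adjusted p = 0.0106). *FOSL1*, the most abundant AP-1 member by RPKM, rose from 242 and 242 RPKM to 393 and 371 RPKM (difference 0.66, limma adjusted p = 0.00331), and *JUND* from 10.2 and 11.02 RPKM to 17.5 and 16.1 RPKM (0.65). *JUN* was 45.5 and 43.1 RPKM with TBX3iso1 and 47.98 and 37.997 RPKM with TBX3iso2, with overlapping lines.

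In all 8 called members replicate 1 of TBX3iso2 was above replicate 2, and the part of that library in the counts was measured by leaving it out. Without that library 6 of the 33 were called, and without replicate 2 of TBX3iso2 10 were. *KLF6* lost its call without TBX3iso2 replicate 1 (0.55). *DUSP1* lost its call without EV replicate 1 (0.66), EV replicate 2 (0.66), TBX3iso1 replicate 1 (0.71), TBX3iso1 replicate 2 (0.62) or TBX3iso2 replicate 1 (0.41).

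Genes of epidermal differentiation went the opposite way. Squamous cells crosslink involucrin and small proline-rich (SPRR) proteins into a cornified envelope, and most of these genes lie together on chromosome 1. Of 23 tested members 12 were lower with TBX3iso2 and 1, *LY6D*, was higher, 56.5% called against 6.29% of all genes. The median was -0.73, the lowest of the lists with at least 5 tested members, and ranged from -0.79 to -0.49 over the alternatives. The linear model without moderation called 3 of the 23.

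*IVL*, which encodes involucrin (chr1:152881022-152884362), was 1.89 and 1.83 RPKM with TBX3iso1 and 0.273 and 0.1495 RPKM with TBX3iso2, against 0.296 and 0.336 RPKM in EV. It differed by -2.68 (standard error 0.222, limma adjusted p = 0.000536). *SPRR3* was 2.29 and 1.87 RPKM with TBX3iso1, 0.148 and 0.0589 RPKM with TBX3iso2, against 0.504 and 0.581 RPKM in EV, a difference of -3.45 (standard error 0.244, limma adjusted p = 0.000268). *SPRR2D* was 1.83 and 2.38 RPKM, 0.143 and 0.0945 RPKM and 0.271 and 0.288 RPKM in the same order, a difference of -3.33 (standard error 0.209, limma adjusted p = 0.000168). In each of them TBX3iso1 was the high line and EV lay nearer to TBX3iso2, all at levels of a few RPKM or less. *SPRR2A* (2.21 and 2.35 RPKM with TBX3iso1 against 0.252 and 0.334 RPKM, difference -2.61) and *SPRR1B* (7.85 and 9.93 RPKM with TBX3iso1 against 2.12 and 2.67 RPKM, difference -1.85) were also highest with TBX3iso1, though SPRR2 paralogs can share reads. EV, at 2.37 and 2.04 RPKM, overlapped TBX3iso2 for *SPRR1B*. *PI3*, the elastase inhibitor elafin and a crosslinked envelope protein, was 7.78 and 9.19 RPKM with TBX3iso1, 2.46 and 2.93 RPKM with TBX3iso2, against 3.96 and 3.31 RPKM in EV (difference -1.62, limma adjusted p = 0.000612).

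A pair of proteases of the skin had another order of lines. *KLK7*, a kallikrein that cleaves corneodesmosomes, was 5.74 and 6.52 RPKM with TBX3iso1 and 1.72 and 1.66 RPKM with TBX3iso2, but 34.4 and 36.3 RPKM in EV. *CASP14*, a caspase of the stratum corneum, was 4.89 and 4.45 RPKM with TBX3iso1, 2.06 and 1.57 RPKM with TBX3iso2, against 22.2 and 20.9 RPKM in EV. For both, EV was far above the isoform lines and TBX3iso2 the lowest, with differences between the isoforms of -1.80 and -1.33. *LY6D*, the exception, was 4.92 and 5.66 RPKM with TBX3iso1 and 12.6 and 15.4 RPKM with TBX3iso2, with EV at 29.7 and 27.2 RPKM (difference 1.38, limma adjusted p = 0.000571). *FLG* (filaggrin, difference -0.74, limma adjusted p = 0.0821) was not called, but was with the replicate block (limma adjusted p = 0.00613). Of 17 tested keratins, 1 was higher (*KRT75*) and 1 lower (*KRT6B*), and both calls were lost when single libraries were left out, *KRT6B* without TBX3iso1 replicate 1 (-0.78) or TBX3iso1 replicate 2 (-0.74) and *KRT75* without EV replicate 1 (0.69), EV replicate 2 (0.69), TBX3iso1 replicate 1 (0.76), TBX3iso1 replicate 2 (0.62), TBX3iso2 replicate 1 (0.74) or TBX3iso2 replicate 2 (0.63). The called share of the keratins was 11.8%, against 6.29% of all genes.

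The AP-1 letters TGANTCA, again chosen after the values were seen, were in 7.76% of all promoters of the table and 4.67% of those of tested genes. They were in 15 of the 297 called higher (5.05%) and 27 of the 244 called lower (11.1%), those 27 including the 3 genes shown. The promoters of 3 of the fallen envelope genes are shown with these letters in capitals, from 220 to 101 bases upstream of the start (GRCh38.p14).
IVL, chr1:152908326-152908445, plus strand: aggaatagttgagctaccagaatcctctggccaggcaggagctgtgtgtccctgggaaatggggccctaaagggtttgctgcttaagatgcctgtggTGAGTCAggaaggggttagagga
SPRR2A, chr1:153057613-153057732, minus strand: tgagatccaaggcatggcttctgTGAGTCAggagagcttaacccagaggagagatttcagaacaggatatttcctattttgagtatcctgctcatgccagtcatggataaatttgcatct
SPRR3, chr1:153001529-153001648, plus strand: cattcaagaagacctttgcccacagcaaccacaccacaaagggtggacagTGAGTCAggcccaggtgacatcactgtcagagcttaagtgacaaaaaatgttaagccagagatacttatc
The letters began 123, 197 and 170 bases upstream of the start in *IVL*, *SPRR2A* and *SPRR3*. The same letters upstream of *CXCL8* therefore stood in a promoter whose gene went the other way.

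**Figure D2:**
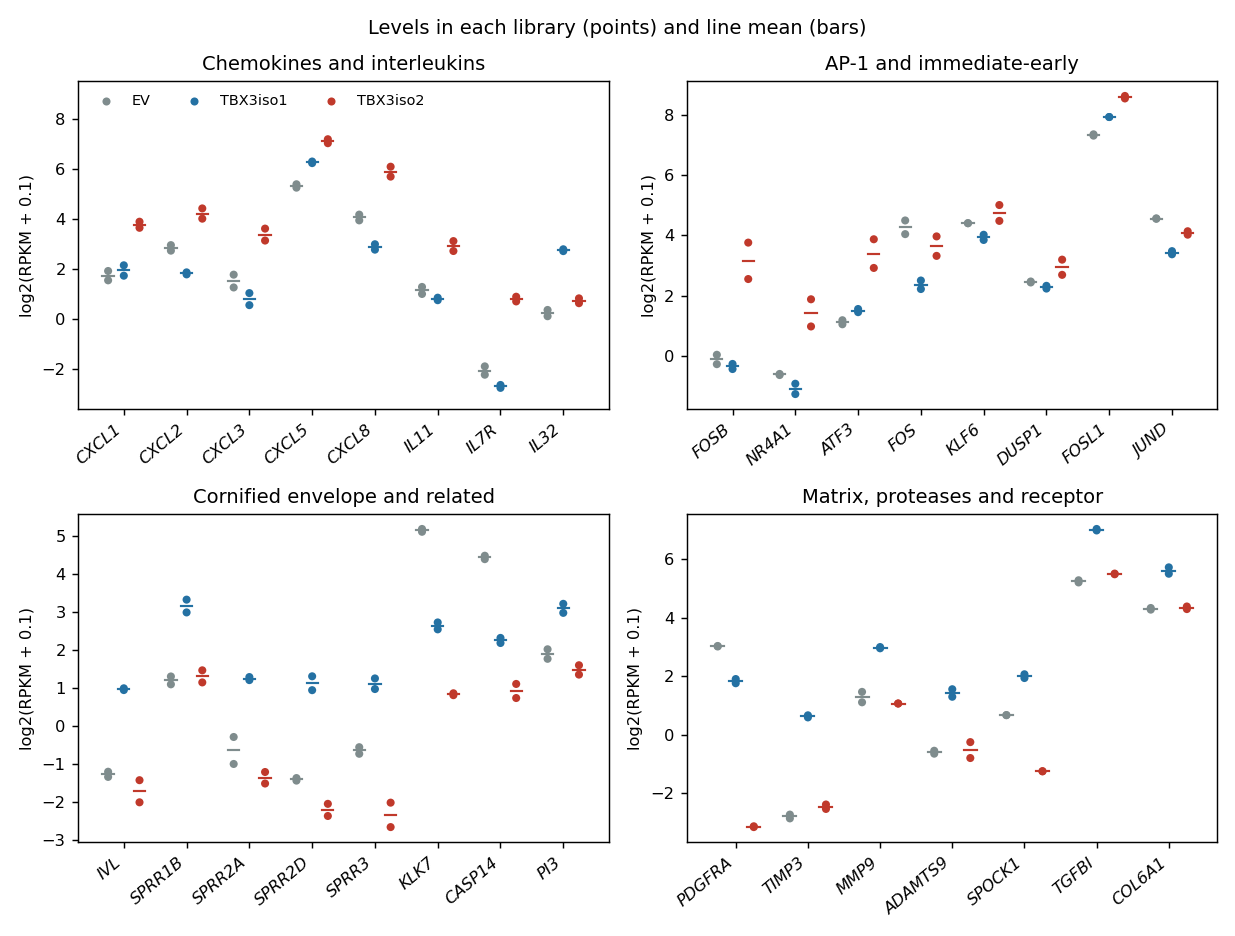
Levels of 31 genes in each library as log2(RPKM + 0.1), in grey for EV, blue for TBX3iso1 and red for TBX3iso2, with a bar at the mean of the 2 libraries of a line. TBX3iso2 (red) is above TBX3iso1 (blue) for the chemokines, *IL11*, *IL7R* and the AP-1 genes, and below it for *IL32*, the envelope genes and the matrix and protease genes, while the place of EV (grey) varies from gene to gene.

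Genes of epithelial-mesenchymal transition (EMT) were compared because the study follows invasion. The list of genes that the study examined for EMT and invasion held 13, *TBX3* itself included. All were tested, 1 was called higher and 2 lower (23.1% called, against 6.29% of all genes). They were picked by the study on these cells and are not independent evidence of direction. *VIM*, the intermediate filament vimentin, was 147 and 160.4 RPKM with TBX3iso1 and 260.1 and 278 RPKM with TBX3iso2, against 18.5 and 18.9 RPKM in EV, and differed by 0.81 (standard error 0.0807, limma adjusted p = 0.00115). *MMP9*, a gelatinase, was 7.64 and 7.88 RPKM with TBX3iso1 and 1.99 and 1.99 RPKM with TBX3iso2, with EV at 2.65 and 2.05 RPKM, beside TBX3iso2. It differed by -1.91 (standard error 0.131, limma adjusted p = 0.000228). *CDH2* (N-cadherin) was 10.1 and 9.59 RPKM with TBX3iso1 and 5.06 and 4.66 RPKM with TBX3iso2, with EV at 5.95 and 5.42 RPKM, and differed by -1.01 (standard error 0.0934, limma adjusted p = 0.000873). Vimentin and N-cadherin, both mesenchymal markers, thus differed in opposite directions.

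The EMT transcription factors gave no call. *SNAI2* (SLUG) was 27.9 and 26.3 RPKM with TBX3iso1 and 20.2 and 18.3 RPKM with TBX3iso2, *TWIST1* 18.2 and 19.6 RPKM (TBX3iso1) against 13.8 and 14.2 RPKM (TBX3iso2), and *ZEB1* 1.84 and 1.57 RPKM (TBX3iso1) against 1.26 and 0.881 RPKM (TBX3iso2). The isoform libraries of each did not overlap, as for 53.5% of all genes. In EV *SNAI2* was 12.5 and 11.9 RPKM, below both isoform lines, and *TWIST1* was 30.3 and 32.7 RPKM, above both. *ZEB1* was 1.07 and 1.12 RPKM in EV, within the range of TBX3iso2. *SNAI2* (difference -0.49, limma adjusted p = 0.0082) and *TWIST1* (-0.43, limma adjusted p = 0.0117) passed the adjusted p but not the fold threshold, and *ZEB1* (-0.64, limma adjusted p = 0.0534) passed the fold threshold but not the adjusted p. Over the 11 tested EMT factors limma called 0 (7 at an unadjusted p under 0.05, 3 higher and 4 lower) and the linear model without moderation 0. *ZEB1* was called with the replicate block (limma adjusted p = 0.0199) and without TBX3iso2 replicate 1 (difference -0.88). *MMP2* (14.98 and 13.9 RPKM with TBX3iso1 against 10.7 and 10.8 RPKM, difference -0.42), *MMP14* (-0.23), *PLAU* (-0.047), *CST6* (-0.063), *SRC* (-0.092), *CDH1* (0.19) and *FN1* (-0.54) were not called. *FN1* was called without TBX3iso1 replicate 2 (-0.71) or TBX3iso2 replicate 1 (-0.79).

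The wider list of mesenchymal markers split within itself. Of 36 tested, 7 were higher and 10 lower with TBX3iso2, 47.2% called against 6.29% of all genes, with a median of -0.041. The linear model without moderation called 8 of the 36. On the higher side *MYL9*, a myosin light chain, rose from 2.11 and 2.53 RPKM to 6.28 and 6.67 RPKM (1.45, limma adjusted p = 0.000811), *CALD1* (caldesmon) from 1.67 and 1.61 RPKM to 3.54 and 3.33 RPKM, *CYR61* from 44.4 and 49.6 RPKM to 89.4 and 83.2 RPKM and *CTGF* from 26.1 and 28.2 RPKM to 43.2 and 43.1 RPKM. *TNC* (0.69) and *ACTA2* (0.61) were the other 2 beside *VIM*. *TNC* lost its call without EV replicate 1 (0.69), EV replicate 2 (0.69), TBX3iso1 replicate 2 (0.51) or TBX3iso2 replicate 1 (0.47), and *ACTA2* as given above. The 10 lower members included *CDH2* and *PDGFRA*. *TGFBI*, an adhesion protein of the matrix, was 127 and 132 RPKM with TBX3iso1 and 44.8 and 45.5 RPKM with TBX3iso2, with EV at 38.8 and 36.9 RPKM, and differed by -1.51 (standard error 0.0706, limma adjusted p = 5.31e-05). *NT5E* (CD73) fell from 282 and 276 RPKM to 174 and 153 RPKM (-0.77). *INHBA* was called lower (-1.11) but lost its call without EV replicate 1 (-1.11), EV replicate 2 (-1.11), TBX3iso1 replicate 1 (-1.02), TBX3iso1 replicate 2 (-1.19) or TBX3iso2 replicate 2 (-0.56).

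*PDGFRA*, the largest fall, is also a fibroblast marker. Of 12 measured fibroblast markers, 3 passed the filter, *PDGFRA*, *COL1A1* and *COL6A3*, and only *PDGFRA* was called. The summed level of the 12 ranged from 44.6 to 54.0 RPKM with TBX3iso1 and from 42.9 to 55.7 RPKM with TBX3iso2. *COL3A1*, *PDGFRB* and *THY1* stayed under 0.1 RPKM in every library. Among the markers below the filter, *COL1A2* was 0.276 and 0.354 RPKM with TBX3iso1 against 0.0539 and 0.0376 RPKM with TBX3iso2. *LUM* was 0.440 and 0.524 RPKM with TBX3iso1 against 0.138 and 0.151 RPKM with TBX3iso2. Both lay lower with TBX3iso2, as *PDGFRA* did, and their part in the result was not tested. *LCP1*, an actin-bundling protein known from leukocytes, rose from 13.8 and 13.2 RPKM to 71.4 and 63.3 RPKM (2.31, limma adjusted p = 3.41e-05), with EV at 17.6 and 19.2 RPKM. *PTPRC*, the defining leukocyte marker CD45, was at most 0.0102 RPKM in any library. The summed level of the 11 leukocyte markers was between 51.9 and 52.1 RPKM with TBX3iso1 and between 101 and 109 RPKM with TBX3iso2, and *LCP1* held most of the difference. Of the endothelial markers *ROBO4* was called higher (2.005 and 1.997 RPKM with TBX3iso1 against 4.19 and 3.94 RPKM, 0.99) while *CDH5* and *VWF* stayed under 0.1 RPKM.

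Among proteases, their inhibitors and collagens, more members were called lower than higher with TBX3iso2, and most were not called. Of 25 tested metalloproteases and TIMPs, 7 were lower and 0 higher (2 higher at an unadjusted p under 0.05), with a median of -0.27 that stayed negative in every alternative. The called share was 28%, against 3.47% of all genes called higher and 2.82% called lower. At so low a share of higher calls, 0 higher among 25 genes says little by itself. The linear model without moderation called 2. *TIMP3* had the largest fall, and *MMP9* is given above. *ADAMTS9*, a proteoglycan-cleaving protease, was 2.83 and 2.35 RPKM with TBX3iso1, 0.735 and 0.472 RPKM with TBX3iso2, against 0.535 and 0.5802 RPKM in EV, a difference of -1.95 (standard error 0.206, limma adjusted p = 0.00148). *ADAM12*, a membrane-bound sheddase, fell from 5.49 and 4.87 RPKM to 3.302 and 2.63 RPKM (-0.79). The protease inhibitor *TIMP1* was 181 and 229 RPKM with TBX3iso1 and 180.0 and 221 RPKM with TBX3iso2, with overlapping lines. *ADAM8* lost its call without EV replicate 1 (-0.72), EV replicate 2 (-0.72) or TBX3iso1 replicate 1 (-0.55), and *ADAMTS1* without EV replicate 1 (-0.68), TBX3iso1 replicate 1 (-0.58) or TBX3iso1 replicate 2 (-0.77).

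Of 29 serpins, cystatins and other protease inhibitors, 6 were lower and 1 higher, with a median of -0.34. That was 24.1% called, against 6.29% of all genes. Besides *SPOCK1* and *PI3*, *SERPINB2* (PAI-2) fell from 1.04 and 1.51 RPKM to 0.303 and 0.295 RPKM (-1.77, limma adjusted p = 0.00276), with EV at 0.125 and 0.119 RPKM. Of 35 serine and cysteine proteases, 5 were lower and 2 higher (20% called). *PLAT*, the tissue plasminogen activator, fell from 5.803 and 5.604 RPKM to 3.05 and 2.78 RPKM (-0.94, limma adjusted p = 0.00301) and *CTSF* (cathepsin F) from 2.68 and 3.12 RPKM to 1.27 and 1.23 RPKM (-1.15, limma adjusted p = 0.00123), while *PRSS22* rose from 22.7 and 21.6 RPKM to 36.3 and 36.1 RPKM (0.71, limma adjusted p = 0.00123).

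Of 36 tested collagen and basement membrane genes, 7 were lower and 2 higher (25% called, against 6.29% of all genes), with a median of -0.28. *COL6A1*, a chain of collagen VI, was 52.8 and 45.4 RPKM with TBX3iso1 and 20.8 and 19.6 RPKM with TBX3iso2, with EV at 20.1 and 19.3 RPKM, and differed by -1.28 (standard error 0.08997, limma adjusted p = 0.000268). Its partner chain *COL6A2* was 5.95 and 5.15 RPKM with TBX3iso1, 1.899 and 2.22 RPKM with TBX3iso2, against 0.505 and 0.3301 RPKM in EV (-1.39, limma adjusted p = 0.00369), while *COL6A3*, the remaining main chain and chosen after its values were seen, was 41.5 and 33.1 RPKM (TBX3iso1) against 48.04 and 35.7 RPKM (TBX3iso2), with overlapping lines (0.16). *COL4A1* (-0.87), a basement membrane collagen, *COL7A1* (-0.84), which anchors it, and *LOXL4* (-1.63), which crosslinks collagen, also fell. *HAS2*, a hyaluronan synthase, fell from 4.57 and 4.63 RPKM to 2.06 and 1.42 RPKM (-1.37, limma adjusted p = 0.00282). The 17 tested integrins, the receptors for these proteins, gave 0 calls by limma (2 higher and 6 lower at an unadjusted p under 0.05) and 0 by the linear model without moderation.

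**Figure D3:**
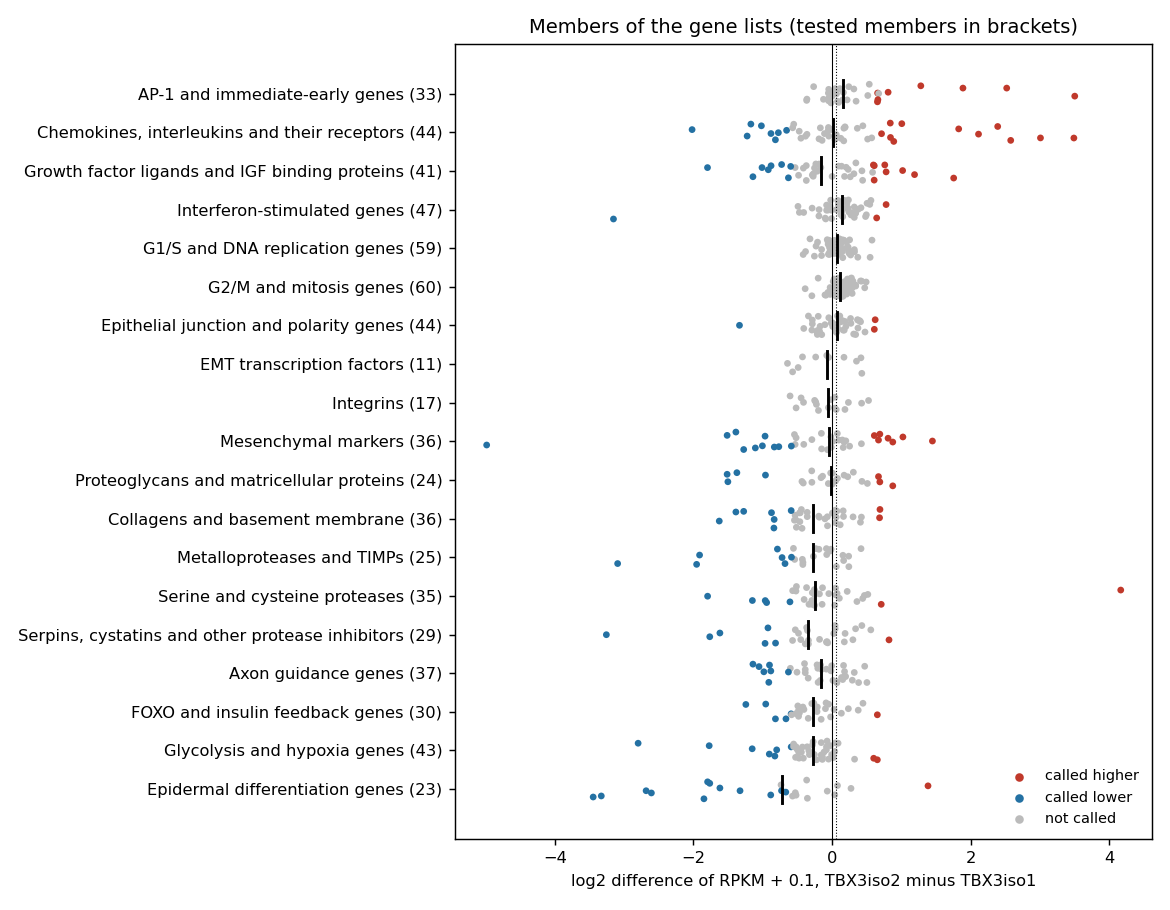
Log2 difference (TBX3iso2 minus TBX3iso1, RPKM + 0.1) of each tested member of 19 gene lists, with the number tested in brackets. Red and blue points were called higher and lower, grey points were not called, the black bars are list medians and the dotted line is the median of all tested genes (0.054). The median of the epidermal differentiation list lies at -0.73, while the chemokine and growth factor lists have called members on both sides.

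Receptors and ligands of axon guidance, which also steer epithelial and endothelial cells, were called lower only. Of 37 tested, 7 were lower and 0 higher (5 higher at an unadjusted p under 0.05). The called share was 18.9%, against 3.47% of all genes called higher and 2.82% called lower. At so low a share of higher calls, 0 higher among 37 genes says little by itself. The linear model without moderation called 3 of the 37. *SEMA3B* fell from 2.37 and 2.35 RPKM to 1.08 and 1.22 RPKM (-0.98, limma adjusted p = 0.00276), *SEMA3F* from 12.4 and 11.2 RPKM to 5.99 and 6.71 RPKM (-0.88, limma adjusted p = 0.00201) and *SLIT2*, a ligand of the ROBO receptors, from 1.14 and 1.11 RPKM to 0.513 and 0.601 RPKM (-0.90, limma adjusted p = 0.00777). The netrin receptor *UNC5B* was 0.526 and 0.494 RPKM with TBX3iso1 and 0.233 and 0.215 RPKM with TBX3iso2, both below 2.89 and 2.99 RPKM in EV. *NRCAM*, a neuronal adhesion molecule of another list, fell further, from 4.23 and 3.53 RPKM to 0.626 and 0.499 RPKM (-2.59, limma adjusted p = 0.000121).

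WNT and TGF-β components were called in both directions. *SFRP1*, a secreted WNT antagonist, rose from 0.241 and 0.231 RPKM to 1.01 and 0.858 RPKM (1.61, limma adjusted p = 0.00195). *FZD8*, a WNT receptor, fell from 7.49 and 7.17 RPKM to 2.59 and 3.06 RPKM (-1.35, limma adjusted p = 0.000982), and *PORCN*, which acylates WNT proteins for secretion, from 8.45 and 8.54 RPKM to 4.14 and 4.68 RPKM (-0.93, limma adjusted p = 0.00114). *INHBB*, an activin subunit, rose from 2.34 and 2.47 RPKM to 5.68 and 5.56 RPKM (1.19, limma adjusted p = 0.000537), while *FST* (follistatin), which neutralises activin, fell from 4.59 and 5.32 RPKM to 2.97 and 2.39 RPKM (-0.87, limma adjusted p = 0.00678). In the WNT list 2 of 30 were higher and 3 lower, 16.7% called against 6.29% of all genes. In the TGF-β and BMP list 1 of 39 was higher and 4 lower (12.8%). Of these 4, *INHBA* lost its call as given above and *BMP1* without TBX3iso1 replicate 1 (-0.56). *LTBP4* lost its call without EV replicate 1 (-0.82), EV replicate 2 (-0.82) or TBX3iso1 replicate 1 (-0.60). Among the lower WNT genes, *LRP6* lies in the chromosome 12 stretch described below. It lost its call without EV replicate 1 (-0.71), EV replicate 2 (-0.71), TBX3iso1 replicate 1 (-0.57) or TBX3iso2 replicate 2 (-0.55).

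Of the genes that FOXO factors or insulin feedback control, 5 of 30 were lower and 1 higher, with a median of -0.28. That was 20% called, against 6.29% of all genes. *IRS2*, an insulin receptor substrate, was 5.73 and 5.01 RPKM with TBX3iso1, 2.89 and 2.54 RPKM with TBX3iso2, against 5.01 and 4.59 RPKM in EV (-0.96, limma adjusted p = 0.00261). *SEPP1* (selenoprotein P) fell from 2.17 and 2.77 RPKM to 0.8502 and 1.12 RPKM, both below 10.7 and 10.5 RPKM in EV (-1.24, limma adjusted p = 0.00309), and *TXNIP*, which restrains glucose uptake, from 103 and 102 RPKM to 64.7 and 64.3 RPKM (-0.67, limma adjusted p = 0.00143). *PDK4* was the higher gene (0.65) and lost its call without EV replicate 1 (0.65), EV replicate 2 (0.65), TBX3iso1 replicate 1 (0.68), TBX3iso1 replicate 2 (0.63) or TBX3iso2 replicate 1 (0.40).

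Mammary lineage factors differed by single genes. *SPDEF*, a luminal ETS factor, was 6.48 and 6.47 RPKM with TBX3iso1, 14.6 and 16.2 RPKM with TBX3iso2, against 25.7 and 23.8 RPKM in EV, and rose by 1.24 (standard error 0.0846, limma adjusted p = 0.000224). *GATA3*, which maintains luminal cells, fell from 4.41 and 4.29 RPKM to 2.03 and 2.18 RPKM (-1.01, limma adjusted p = 0.000998), with EV, at 4.59 and 4.49 RPKM, beside TBX3iso1. These 2 luminal factors thus differed in opposite directions. *CD74*, the invariant chain of MHC class II, rose from 40.6 and 44.8 RPKM to 76.9 and 80.5 RPKM (0.88, limma adjusted p = 0.000637) together with *CIITA*, the class II transactivator (1.01 and 0.879 RPKM to 2.52 and 1.74 RPKM, 1.07, limma adjusted p = 0.0101). Of 47 interferon-stimulated genes 3 were called (6.38%, near the 6.29% of all genes), *BST2* lower and *GBP1* (0.78) and *OAS1* (0.64) higher, and *OAS1* lost its call without TBX3iso1 replicate 2 (0.59).

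Proliferation genes did not pass the test. limma called 0 of 59 G1/S and DNA replication genes (11 higher and 5 lower at an unadjusted p under 0.05) and 0 of 60 G2/M and mitosis genes (21 higher and 3 lower), and the linear model without moderation called 0 in both. Over all tested genes, 30.8% had a limma unadjusted p under 0.05 in either direction. The medians of these 2 lists were 0.068 and 0.11, against 0.054 over all genes. Of 9 tested T-box genes and senescence-gene targets, 0 were called by either (2 higher and 2 lower at an unadjusted p under 0.05). *CDKN1A* (p21), a repression target of TBX factors, was 18.95 and 22.7 RPKM with TBX3iso1 and 18.98 and 18.8 RPKM with TBX3iso2, with overlapping ranges (-0.14, limma adjusted p = 0.401). Of 21 histone genes 0 were called (1 higher and 3 lower at an unadjusted p under 0.05, and 0 by the linear model).

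The remaining lists are given by their counts. In the BCL2 family and cell death list 1 of 45 was higher (*BOK*, 0.68) and 1 lower (*CASP14*), 4.44% called against 6.29% of all genes. In the NRF2 list 2 of 34 were higher (5.88%), and in the HLA list 2 of 31 were higher and 1 lower (9.68%). The cholesterol list had 2 of 33 in each direction (12.1%). Of 17 acute-phase and liver-type secreted proteins 4 were higher and 2 lower (35.3% called, against 6.29% of all genes), of 56 ATF4 stress and amino acid genes 4 and 2 (10.7%), of 20 glucocorticoid-induced genes 3 and 2 (25%), and of 24 proteoglycans and matricellular proteins 3 and 4 (29.2%). The acute-phase share includes *FGB*, at 0.0270 and 0.0278 RPKM with TBX3iso1 and 0.154 and 0.120 RPKM with TBX3iso2. *FGB* passed the filter only through EV (3.39 and 3.63 RPKM). Its call was kept only without TBX3iso2 replicate 2, among the single libraries left out. *FGG* was also low in the isoform lines, at 0.240 and 0.420 RPKM and 1.05 and 0.740 RPKM, against 30.5 and 31.5 RPKM in EV. Of 18 neuronal genes 4 were higher and 1 lower (27.8%), of 44 junction and polarity genes 2 and 1 (6.82%), of 28 Notch genes 1 and 1 (7.14%), and of 5 mucins 1 and 2 (60%). Of 6 tested cancer-testis antigens 2 were lower (33.3%), and of 18 HOX genes and 17 potassium channels 1 each was higher (5.56% and 5.88%). Among 64 ribosomal protein genes and 68 nuclear respiratory chain genes 1 each was lower (1.56% and 1.47%).

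Noncoding genes by symbol (LINC or -AS) were called in 31 of 319 cases, 22 higher and 9 lower, 9.72% against 6.29%. *VIM-AS1*, which overlaps *VIM* on the opposite strand (chr10:17256238-17272017), fell from 5.64 and 5.796 RPKM to 1.71 and 1.92 RPKM (-1.60, limma adjusted p = 0.000279), opposite to *VIM*. The libraries were stranded, but the sources used here do not state whether the counting used strand, and reads of the pair may not have been told apart. *FAM222A-AS1* (1.75) and *APCDD1L-AS1* (1.64) rose, the latter with its neighbour *APCDD1L* (0.98). Solute carriers were called in 12 of 213 cases (5.63%) and zinc finger (ZNF) genes in 5 of 403 (1.24%).

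Called genes were gathered in a few places of the genome. Positions could be given for 11700 of the tested genes (91.4%) from the GENCODE annotation of GRCh37, and the regions below were chosen after the values were seen, from medians of 25 neighbouring genes. On chromosome 12, 154 tested genes started before 34 Mb (chr12:389223-33049732). Of these 50 were called lower with TBX3iso2 and 2 higher (32.5% and 1.30%, against 2.82% and 3.47% of all genes), 143 had a negative difference, and the median was -0.48. On the rest of the chromosome, which holds *TBX3*, 5 of 497 were lower and 18 higher, with a median of 0.029. For 85.1% of the 154, both TBX3iso1 libraries lay above both TBX3iso2 libraries. That order held for 18.3% of the 497 genes on the rest of the chromosome. It held for 19.7% of the 10759 genes outside chromosome 12 and the other stretches described below. Centred on the mean of the 6 libraries, the median gene of the region was 0.32 and 0.28 on the log2 scale in the TBX3iso1 libraries, -0.16 and -0.24 in the TBX3iso2 libraries and -0.095 and -0.13 in EV. TBX3iso1 was thus the line that stood apart there.

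Many of the larger calls for metabolism and complement lay in that stretch of chromosome 12. *SLC2A3*, the glucose transporter GLUT3 (chr12:8071826-8171603), was 4.07 and 3.83 RPKM with TBX3iso1, 0.525 and 0.442 RPKM with TBX3iso2, against 1.95 and 1.83 RPKM in EV, a difference of -2.80 (standard error 0.131, limma adjusted p = 5.31e-05). *ENO2*, a glycolytic enolase, was 20.01 and 19.6 RPKM, 5.85 and 5.61 RPKM and 7.55 and 8.59 RPKM in the same order, a difference of -1.77 (standard error 0.0884, limma adjusted p = 6.53e-05). *C1R* (4.25 and 4.72 RPKM with TBX3iso1 against 1.01 and 1.11 RPKM, -1.98) and *C1S* (4.06 and 3.58 RPKM with TBX3iso1 against 0.736 and 0.764 RPKM, -2.20), the proteases of complement C1, and *MGP* (1.71 and 1.52 RPKM with TBX3iso1 against 0.429 and 0.394 RPKM, -1.75), an inhibitor of calcification, fell as well, by more than the regional median. *ARHGDIB* (187 and 210.0 RPKM with TBX3iso1 against 119 and 127 RPKM, -0.69) lay closer to it, with EV at 95.9 and 98.2 RPKM. In EV *C1R* was 6.46 and 7.11 RPKM and *C1S* 4.39 and 4.28 RPKM, above both isoform lines. *MGP* was 1.29 and 1.77 RPKM in EV, overlapping TBX3iso1. For *C1R*, *C1S* and *MGP* TBX3iso2 was therefore the line farther from EV, unlike the median gene of the region. *TPI1*, triosephosphate isomerase, had one of the largest falls on the linear scale, from 514 and 599 RPKM to 338 and 401 RPKM (-0.59, limma adjusted p = 0.0211), and lost its call without EV replicate 1 (-0.59), EV replicate 2 (-0.59), TBX3iso1 replicate 2 (-0.48) or TBX3iso2 replicate 1 (-0.47). *GAPDH* (-0.56) and *LDHB* (-0.48) were not called, and *LDHB* was called without TBX3iso2 replicate 2 (-0.60).

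Over the glycolysis and hypoxia list, 7 of 43 were lower and 2 higher, 20.9% called against 6.29% of all genes. The list median was -0.27 and ranged from -0.33 to -0.22 over the alternatives. The 5 members within the chromosome 12 stretch had a median of -0.59 and 3 calls. The 38 elsewhere had a median of -0.19 and 4 genes called lower: *NDRG1*, a hypoxia-induced gene (83.3 and 82.9 RPKM to 36.8 and 37.8 RPKM, -1.15, limma adjusted p = 0.000145), *ALDOC*, an aldolase (20.3 and 21.97 RPKM to 10.99 and 11.4 RPKM, -0.91, limma adjusted p = 0.000736), *CA12*, a carbonic anhydrase (-0.83), and *PFKFB4*, a regulator of glycolytic flux (-0.80).

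Stretches on other chromosomes stood apart as well. On chromosome 11 (chr11:82533978-124768396), 22 of 136 tested genes were higher and 3 lower, with a median of 0.27. On chromosome 16 (chr16:71559136-90111383), 14 of 104 were higher and 0 lower, with a median of 0.35, and EV lay with TBX3iso2, at centred medians of 0.16 and 0.15 against 0.099 and 0.10 for TBX3iso2 and -0.24 and -0.26 for TBX3iso1. On chromosome 4, a window of 25 genes (chr4:73146686-77819297) held 11 higher and 0 lower: *CXCL1*, *CXCL2*, *CXCL3*, *CXCL5*, *CXCL8*, *EREG*, *AREG*, *EPGN*, *BTC*, *MTHFD2L* and *SOWAHB*. These 5 CXC chemokines and 4 EGF-family ligands are neighbours, while *HBEGF*, *NRG4* and *CCL20* are not among the called genes of the window. On chromosome 1 (chr1:151732123-153604515), a window of 25 genes held 8 lower and 0 higher, 6 of them the epidermal genes *IVL*, *SPRR1B*, *SPRR2A*, *SPRR2D*, *SPRR3* and *S100A8*, with *S100A1* and *S100A3*. *S100A8* lost its call without TBX3iso1 replicate 2 (-0.55). Over all 25-gene windows, the central 95% of medians ran from -0.23 to 0.27. A window on chromosome 8 (chr8:38854273-49834299, from *ADAM9* to *SNAI2*) held 7 lower and 1 higher, with a median of -0.48, and includes *PLAT* and *SNAI2* described above. Outside chromosome 12 and the regions on chromosomes 1, 4, 11 and 16, with this window counted, 338 of 10759 genes were higher (3.14%) and 271 lower (2.52%).

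**Figure D4:**
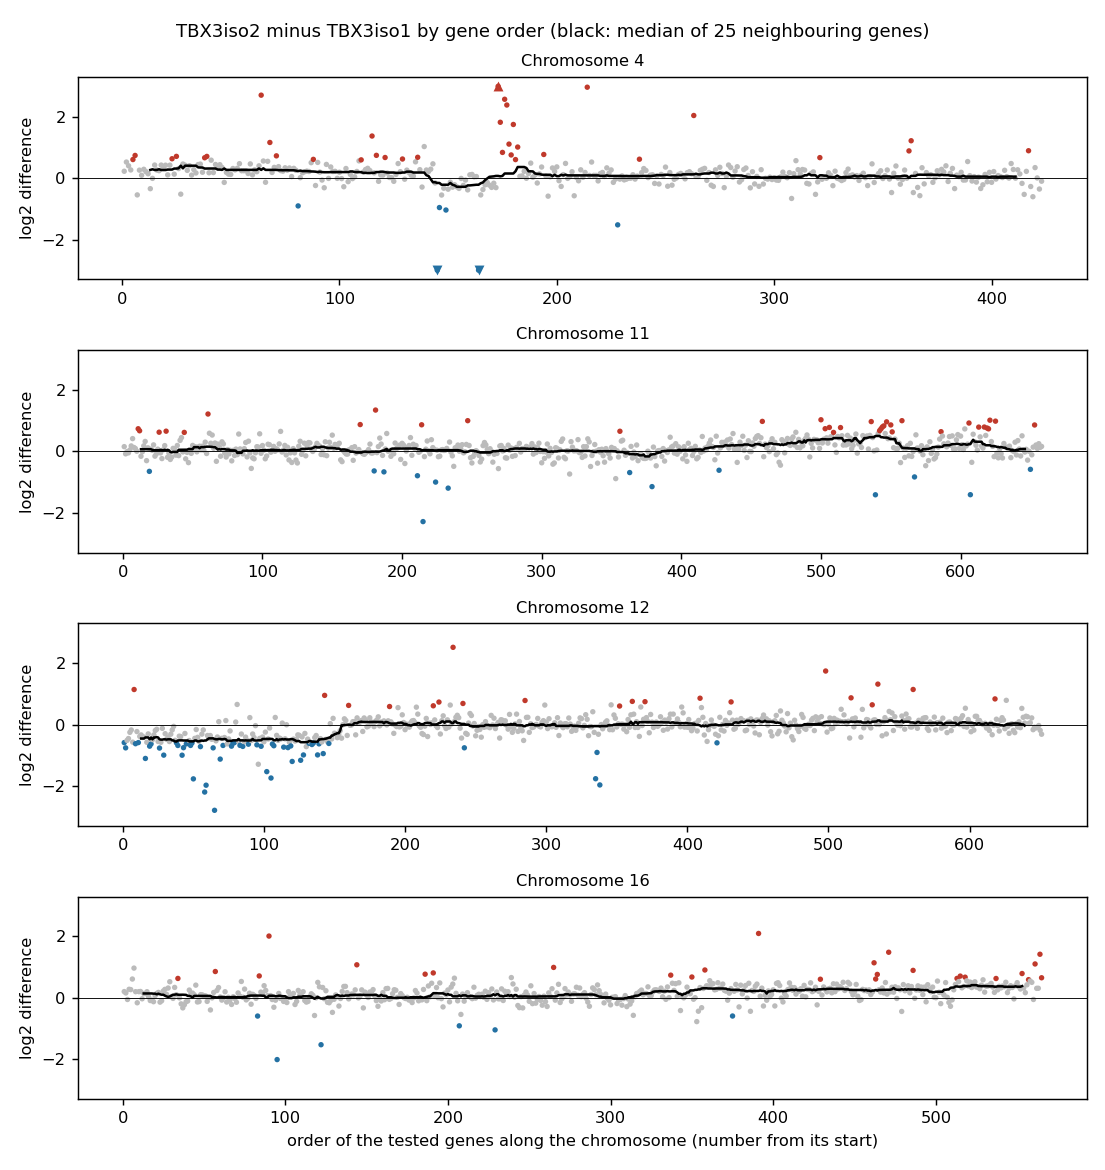
Log2 difference (TBX3iso2 minus TBX3iso1) of the tested genes in their order along chromosomes 4, 11, 12 and 16, with red and blue points for called genes, triangles for values beyond 3 in either direction, and a black line for the median of 25 neighbours. Of the first 154 genes of chromosome 12, 143 lie below 0 and the median is -0.48, the rest lie around 0, the last stretch of chromosome 16 lies above 0, and the cluster of red points on chromosome 4 is the chemokine and EGF-family window.

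The largest differences of mean RPKM on the linear scale fell on highly expressed genes. *ACTG1* (γ-actin) was 573 and 614 RPKM with TBX3iso1 and 836 and 948 RPKM with TBX3iso2 (0.59, limma adjusted p = 0.02) and lost its call without EV replicate 1 (0.59), EV replicate 2 (0.59), TBX3iso1 replicate 1 (0.54) or TBX3iso2 replicate 2 (0.50). *UCHL1*, a ubiquitin hydrolase, rose from 97.9 and 119 RPKM to 169 and 195 RPKM (0.75, limma adjusted p = 0.00696) and *CRABP2*, a retinoic acid carrier, from 73.6 and 82.2 RPKM to 122 and 137 RPKM (0.73, limma adjusted p = 0.00315). *RPL37* (203 and 251 RPKM with TBX3iso1 against 128 and 164 RPKM, -0.64) and *NDUFS6* (125 and 156 RPKM with TBX3iso1 against 80.1 and 103 RPKM, -0.63) were called lower, but *RPL37* lost its call without EV replicate 1 (-0.64), EV replicate 2 (-0.64), TBX3iso1 replicate 2 (-0.49) or TBX3iso2 replicate 1 (-0.46) and *NDUFS6* without EV replicate 1 (-0.63), EV replicate 2 (-0.63), TBX3iso1 replicate 2 (-0.47) or TBX3iso2 replicate 1 (-0.45). Transcript length moved with the replicate number: in the shortest of 4 equal bins of transcript length replicate 2 exceeded replicate 1 by a median of 0.14 with TBX3iso1 and 0.16 with TBX3iso2, and in the longest it was lower by 0.14 and 0.21. Between the lines the medians of the 4 length bins were 0.047 to 0.060, nearly the same in each.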

How the data were processed

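RNA-Seq was measured in 6 libraries of 21NT cells, 2 for each of EV, TBX3iso1 and TBX3iso2, grouped by the labels. The submitters' processing notes name TopHat, Partek and hg19, and the authors deposited 1 RPKM value per gene and library. Libraries were stranded mRNA. Read counts were not used here, so no interval for counting error was given. log2(RPKM + 0.1) was fitted with limma 3.58.1 in R 4.3.3 over all 6 libraries with 1 mean per line and trended moderation, after a filter on a mean of at least 0.5 RPKM, and tables were made with pandas 2.3.3. The two-sided test of TBX3iso2 minus TBX3iso1 called genes at an adjusted p under 0.05 (Benjamini-Hochberg) and over 1.5-fold. The fold on this scale understates the change of low genes. The script was tested on simulated data.

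Named genes were the 12 largest rises and falls, the 8 largest differences of mean RPKM each way, up to 6 called members per list with defining members, the study's EMT genes, and called genes under 0.1 RPKM in one line and at least 1 RPKM in the other. Chosen after their values were seen were *CXCL1*, *IL6*, *CCL20*, *TNFAIP3*, *NFKBIA*, *ACKR3*, *IL1RN*, *IL1A*, *JUND*, *JUN*, *EPGN*, *AREG*, *HBEGF*, *CALD1*, *CTGF*, *LY6D*, *S100A8*, *S100A1*, *FLG*, *GAPDH*, *LDHB*, *C1R*, *C1S*, *MGP*, *MTHFD2L*, *TIMP1*, *ZEB1*, *CDKN1A*, *COL1A2*, *LUM* and the remaining genes of the windows. The comparison and lists were chosen with earlier results of these data known.

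Replicate numbers were checked for pairing: the differences of replicate 2 minus replicate 1 correlated across genes at 0.22 (EV and TBX3iso1), 0.11 (EV and TBX3iso2) and 0.50 (both isoforms), which meets the criterion for pairing. The values given come from the fit without a block, and the block was an alternative. The pairing comes from the data, and the labels do not say what a number marks. Alternatives changed the pseudocount, filter, scaling, libraries, block, trend and moderation. Some genes that the rule selects are not reported here.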

Additional observations from a re-analysis of the deposited data

How the results depend on the processing

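The count of 805 called genes (444 higher, 361 lower) moved by over 1.5 times under 3 alternatives: 199 (103 higher, 96 lower) with a linear model without moderation, 504 (273 and 231) with a mean of at least 2 RPKM, where fewer genes were tested, and 419 (207 and 212) with a pseudocount of 1 RPKM. Leaving out 1 library gave 623 to 919 called, 331 to 537 higher and 289 to 441 lower. With the replicate block 900 were called (497 and 403), including all 805, and among the genes named it changed only the calls of *EGR1*, *FLG* and *ZEB1*, which were gained. Of 168 named called genes, 58 kept the call in every alternative. *TBX3* ranged from 0.33 to 0.53 when 1 library was left out. For 22 of the 50 lists the median changed sign under some alternative, the chemokine list included. Each line was 1 transfected pool with 2 libraries, so the isoform and the history of its pool cannot be told apart.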
